A study of Gallus gallus with 31 samples.

Results

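Fat around the heart was compared with the fat pad of the abdomen in chickens of a line that the labels name only as Illinois. The comparison used every library labelled Illinois, 8 of cardiac and 7 of abdominal adipose tissue, which are 15 of the 31 libraries of the study. All 15 came from male birds at day 42 after hatch, carried the label control and belonged to a trial named Fall 13. Tissue was frozen in liquid nitrogen, and polyA RNA was sequenced from a stranded kit. The other 16 libraries were of the same 2 depots in Ross birds, a commercial broiler line raised for meat. The 8 Ross libraries of the Fall 13 trial, 4 of each depot and likewise male, of day 42 and labelled control, served as a comparison. Whether the 2 depots were sampled from the same birds is not stated in the labels, and p-values reflect only how far these libraries vary.

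White fat cells store triglyceride and release fatty acids, and their identity rests on the nuclear receptor PPARG. Fat depots also hold blood vessels, fibroblasts, nerves and immune cells, and they arise at different places in the embryo. Fat at the heart lies next to the epicardium, the cell sheet that covers heart muscle, and T-box factors are among the transcription factors that pattern that region. Libraries are of whole tissue, so fewer cells of a type and less RNA per cell cannot be told apart.

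Expression was given as FPKM, a fragment count corrected for transcript length and library size, for 564 genes that form a stretch of the authors' table in order of gene number. They are not a random sample of the genome, and a value of 0.001 is the floor of the table rather than a level. Replicate libraries correlated at 0.907 to 0.960 across genes in abdominal and at 0.893 to 0.967 in cardiac fat, on the log2 scale. Total depth is unknown. Steps between low values gave relative depths of 0.889 to 1.22 in abdominal and 0.697 to 1.31 in cardiac libraries, a difference in means at p = 0.0292 (exact permutation test, two-sided, adjusted p = 0.0438 over 3 values). Library numbers of the 2 depots do not interleave, so an order of preparation cannot be told apart from depot.

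A pair of the cardiac libraries stood apart through muscle transcripts. CASQ2, the calcium store protein of heart muscle, was at 36.3 FPKM in library 1107 and 27.5 FPKM in library 1112. The other 6 cardiac libraries held 0.0804 to 1.94 FPKM, and the highest abdominal value was 0.206 FPKM. MYH7B, a myosin heavy chain, was highest in the same pair of libraries, with 53.0 FPKM in library 1107 and 163 FPKM in library 1112 against 0.124 to 11.3 FPKM in the other cardiac and 0.0179 to 0.244 FPKM in the abdominal libraries. In a fit with no filter on low values MYH7B was higher in cardiac fat (log2 fold change 2.98, limma adjusted p = 0.0355). Of 35 listed heart muscle genes 4 were measured, and their summed level was 0.1 to 0.564 FPKM in abdominal fat. In cardiac fat it was 97.8 FPKM in library 1107, 198 FPKM in library 1112 and 0.472 to 13.4 FPKM in the other 6. Leaving out libraries 1107 and 1112 thus did not remove all muscle transcripts. Library 1107 also had the highest summed level of measured skeletal muscle genes, 6.46 FPKM, against 0.308 FPKM in library 1112. IRX4, a heart ventricle factor among the 4 measured heart muscle genes, was far lower in library 1107 than in library 1112. The kind of muscle behind these transcripts was not tested. For tested genes named below, a call that was lost without these 2 libraries is stated. Other estimates include both libraries unless stated.

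Testing was limited to genes that reached 1 FPKM in 7 or more of the 15 libraries, which left 395 of 564. Of these, 70 differed between the depots (17.7%, limma, Benjamini-Hochberg adjusted p below 0.05), 27 higher (6.84%) and 43 lower (10.9%) in cardiac fat. The median log2 fold change of all tested genes, cardiac minus abdominal, was -0.03. In 23 genes (5.82%) no cardiac library overlapped any abdominal one, 12 of them higher (3.04%) and 11 lower (2.78%) in cardiac fat, and all 23 were among the 70. Of the 70 genes, 51 were called in every one of 15 fits that left out a single library, 21 of them higher and 30 lower. Among the 70, 11 reached 1 FPKM in fewer than 7 abdominal libraries and 2 in fewer than 7 cardiac libraries. Such genes needed libraries of the other depot to pass the filter.

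Without libraries 1107 and 1112, 53 of the 70 genes were still called, and the split over all tested genes was 34 higher and 29 lower. The split also moved with the scaling, to 46 higher and 46 lower after upper quartile scaling and to 43 and 47 after median-of-ratios scaling. Quantile normalization gave 37 higher and 63 lower. FABP4 takes a large share of the summed values of this stretch of genes, so libraries were also scaled to the sum of the other genes in it. Its share of the whole library is unknown, so this scaling is an alternative and not a correction. The median log2 fold change then moved to 0.22 and the split to 64 higher and 23 lower.

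**Figure D1:**
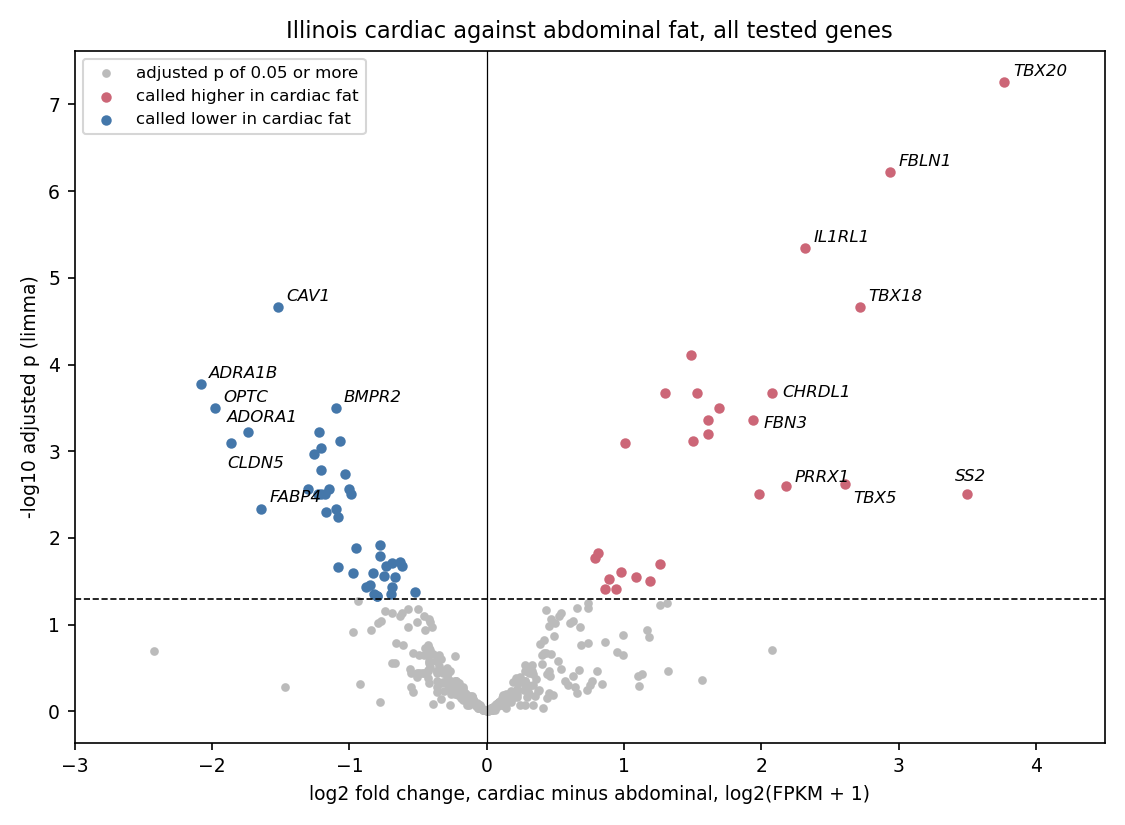
Each point is 1 of 395 tested genes, with the log2 fold change (cardiac minus abdominal, Illinois) on the horizontal axis and the adjusted p of limma, as -log10, on the vertical axis. Coloured points are the 27 genes called higher and the 43 called lower in cardiac fat; TBX20 and FBLN1 lie highest, and ADRA1B lies farthest to the left of the called genes.

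T-box factors, which pattern the heart, the limbs and the body wall of the embryo, were among the genes with large rises. Of 17 listed genes 7 were measured and 5 tested, of which 3 were higher (TBX20, TBX18 and TBX5) and 1 lower (TBX2) in cardiac fat. The median log2 fold change of the 5 was 2.61, but TBX20 was tested only because it was high in cardiac fat. TBX18 and TBX5 also had abdominal libraries below 1 FPKM and needed cardiac libraries to pass the filter. The count and the median are therefore no evidence about the family. Over all tested genes 6.84% were higher and 10.9% lower in cardiac fat. TBX20, a factor of the developing heart, was close to undetected in abdominal fat, at 0.001 to 0.116 FPKM with a median of 0.0751 FPKM. In cardiac fat it lay at 6.94 to 35.0 FPKM, with a median of 12.8 FPKM. The groups were far apart, and no abdominal library reached 1 FPKM, so TBX20 passed the filter through the cardiac libraries alone. Its log2 fold change was 3.77 (SE 0.28, limma adjusted p = 5.56e-08) on the log2(FPKM + 1) scale, which understates the change of a gene this low in one group. The highest cardiac value, 35.0 FPKM, was in library 1112. Without libraries 1107 and 1112 the log2 fold change was 3.53 (adjusted p = 1.04e-07). The part of heart muscle in the remainder was not tested.

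TBX18, a factor of the epicardium, had a median of 1.04 FPKM in abdominal fat (0.536 to 8.21) and 14.7 FPKM in cardiac fat (7.77 to 27.9). The log2 fold change was 2.72 (SE 0.33, adjusted p = 2.2e-05). A single pair of libraries made the groups touch: abdominal library 1092, at 8.21 FPKM, lay above cardiac library 1107, at 7.77 FPKM, and the other 6 abdominal libraries lay at 1.28 FPKM or below. TBX18 was the only measured gene of 9 listed for epicardium and mesothelium.

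TBX5, needed in the heart and the forelimb bud, lay at 0.154 to 3.10 FPKM in abdominal fat (median 0.669) and at 3.13 to 63.6 FPKM in cardiac fat (median 9.56). Its groups met without overlapping, and the log2 fold change was 2.61 (SE 0.53, adjusted p = 0.00238). The highest 2 cardiac values were those of the muscle-rich libraries, 27.8 FPKM in 1107 and 63.6 FPKM in 1112. Without them the log2 fold change was 1.99 (adjusted p = 0.00178), and the part of heart muscle in the remainder was not tested.

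TBX2 went the other way, from a median of 7.71 FPKM in abdominal fat (4.95 to 27.8) to 3.59 FPKM in cardiac fat (1.86 to 7.69). Its log2 fold change was -1.08 (SE 0.31, adjusted p = 0.0216), and the groups overlapped. Without libraries 1107 and 1112 the call was lost (-0.95, adjusted p = 0.0687). TBX3, the closest relative of TBX2, did not pass the test (log2 fold change -0.77, adjusted p = 0.0909). TBX4 and TBX22 were too low to be tested.

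**Figure D2:**
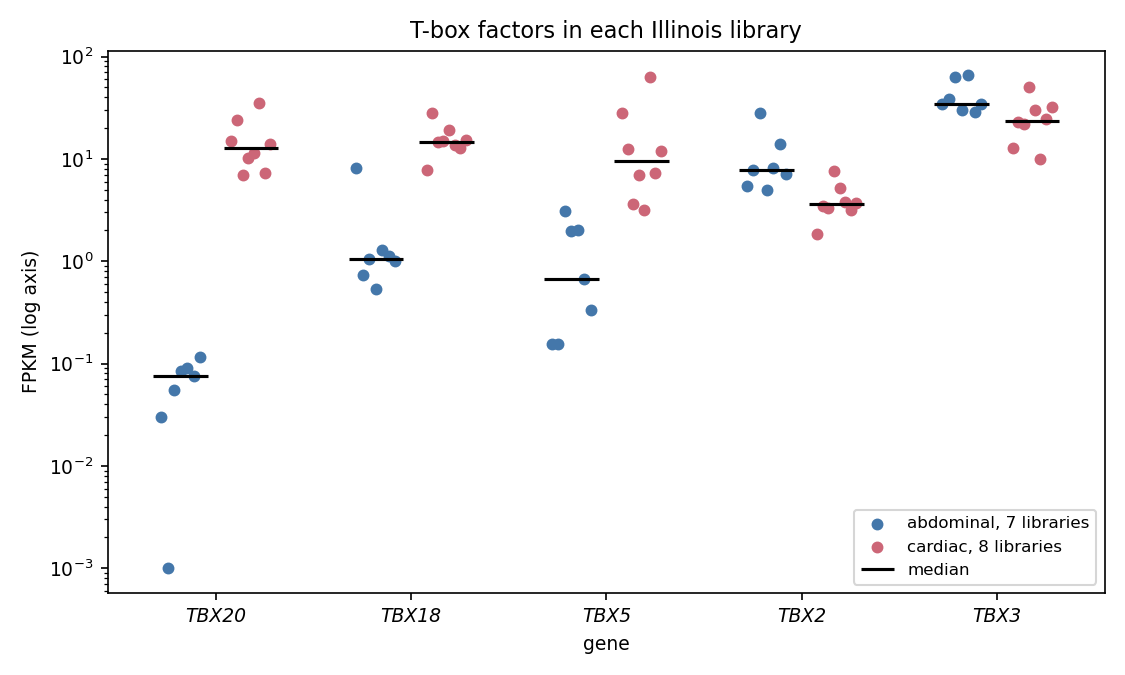
Points are the FPKM values of single Illinois libraries, on a log axis, for the 5 tested T-box factors in abdominal (n = 7) and cardiac (n = 8) fat, and bars mark the medians. TBX20 leaves a wide gap between the depots, TBX18 overlaps only through abdominal library 1092, at 8.21 FPKM, and most cardiac libraries lie below the abdominal ones in TBX2.

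Among 34 listed patterning factors of limb and mesenchyme, 8 were measured and only PRRX1 passed the filter. PRRX1, a homeobox factor of limb and connective tissue mesenchyme, had a median of 5.13 FPKM in abdominal fat (2.52 to 26.1) and 37.4 FPKM in cardiac fat (28.7 to 75.1). The groups did not overlap, although 3 abdominal libraries (1092, 1094 and 1098) reached more than 20 FPKM. The log2 fold change was 2.18 (SE 0.45, adjusted p = 0.00253).

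PITX1, the homeobox factor that marks the hindlimb, was named after its values were seen, because it missed the filter. It lay at 0.256 to 5.13 FPKM in abdominal fat (median 3.26) and at no more than 0.094 FPKM in cardiac fat, where 6 of 8 libraries were at the floor. The groups did not overlap. In the fit with no filter on low values PITX1 had a log2 change of -1.91 (adjusted p = 0.000228). Its lowest abdominal value was in library 1092, the library with the highest abdominal TBX18.

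The fit with no filter tested 548 genes and called 77, of which 14 had not been tested before. MAB21L2, a developmental regulator of eye and body wall, was among them, with a median of 2.41 FPKM (abdominal) and 0.24 FPKM (cardiac) (log2 fold change -1.20, adjusted p = 0.00144). SOX9, a factor of cartilage and of heart valve mesenchyme, was higher in cardiac fat, with medians of 0.0858 and 1.58 FPKM (log2 fold change 1.07, adjusted p = 0.00471). Both sat mostly near or below 2 FPKM, where few fragments stand behind a value.

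Of 29 listed genes of fibroblasts and matrix 7 were tested, of which 1 was higher, 1 lower and 5 not called, with a median log2 fold change of -0.23. Over all tested genes 6.84% were higher and 10.9% lower, so the list as a whole did not stand out by its count. FBLN1, the matrix glycoprotein fibulin-1, lay at 3.11 to 14.5 FPKM in abdominal fat (median 4.11) and at 33.4 to 64.4 FPKM in cardiac fat (median 46.2). The gap was wide, and the log2 fold change was 2.94 (SE 0.26, adjusted p = 6.05e-07). OPTC, the proteoglycan opticin first known from the eye, fell from a median of 53.8 FPKM (31.5 to 72.1) to 12.3 FPKM (3.57 to 23.9) without overlap, a log2 change of -1.98 (SE 0.32, adjusted p = 0.000321).

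The matrix genes that were not called included some of the most abundant. SPARC, a collagen-binding protein, had medians of 1196 FPKM (abdominal) and 1048 FPKM (cardiac) (log2 fold change -0.25, adjusted p = 0.598). MMP2, a gelatinase, had medians of 80.3 and 166 FPKM (log2 fold change 0.74, adjusted p = 0.162). Of 3 tested fibrillins, proteins of elastic microfibrils, FBN1 and FBN2 were not called, while FBN3, named after its values were seen, was higher in cardiac fat (log2 fold change 1.94, adjusted p = 0.000438) from a median of 0.186 to 3.87 FPKM. FBN3 reached 1 FPKM in no abdominal library and passed the filter through the cardiac libraries alone.

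BMPs signal through paired receptors and SMAD proteins, and the ID genes are among their targets. Of 44 listed genes of BMP and TGF-beta signalling 13 were tested, of which 3 were higher and 2 lower in cardiac fat, with a median log2 fold change of -0.04. Shares over all tested genes were 6.84% higher and 10.9% lower. CHRDL1, a secreted protein that binds BMPs and blocks them, rose from a median of 1.41 FPKM (0.297 to 5.94) to 11.2 FPKM (6.25 to 15.3), with a log2 change of 2.08 (SE 0.32, adjusted p = 0.000211) and no overlap. ID4, a partner that holds basic helix-loop-helix factors off DNA, rose from 6.60 FPKM (3.89 to 11.1) to 19.4 FPKM (13.6 to 42.4), again without overlap (log2 fold change 1.5, SE 0.27, adjusted p = 0.000764).

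SMAD6, an inhibitor within BMP-receiving cells, was also higher, with medians of 16.1 and 28.0 FPKM (log2 fold change 0.79, SE 0.22, adjusted p = 0.0171), a call that the fit of all 31 libraries with a trial term lost (adjusted p = 0.07). The type 2 receptor BMPR2 was lower, with medians of 10.9 FPKM (8.43 to 16.4) and 4.76 FPKM (3.61 to 8.54). Its groups touched through cardiac library 1110 alone, and the log2 fold change was -1.10 (SE 0.18, adjusted p = 0.000321). TGFBR3, a co-receptor for TGF-beta, was called at -0.80 (adjusted p = 0.0463), but 13 of the 15 fits that left out a library lost it (highest adjusted p = 0.0914), as did the fit without 1107 and 1112 (adjusted p = 0.0931). BMP2 itself had medians of 2.63 and 2.74 FPKM and did not pass the test (adjusted p = 0.976).

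Wnt proteins bind Frizzled (FZD) receptors, and AXIN2 is both a scaffold of the pathway and one of its common targets. Of 42 listed Wnt pathway genes 10 were tested, of which 2 were higher and 3 lower, with a median log2 fold change of 0.24. All tested genes together were 6.84% higher and 10.9% lower. FZD1 lay at 3.46 to 9.94 FPKM in abdominal fat (median 5.41) and at 10.8 to 19.3 FPKM in cardiac fat (median 15.4), with no overlap and a log2 change of 1.30 (SE 0.20, adjusted p = 0.000211). AXIN2 rose from a median of 2.02 FPKM (1.79 to 4.03) to 6.25 FPKM (3.49 to 7.63), a log2 change of 1.01 (SE 0.19, adjusted p = 0.000812), with cardiac library 1107 as its lowest.

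FZD6 fell from a median of 32.9 FPKM (23.5 to 49.6) to 12.9 FPKM (4.83 to 27.3), a log2 change of -1.30 (SE 0.28, adjusted p = 0.00274), with overlap. FZD4, a receptor of vascular endothelium in mammals, had a log2 change of -0.75 (SE 0.22, adjusted p = 0.0275). Its call was lost without abdominal libraries 1093, 1097 or 1099 or cardiac libraries 1108 or 1112 (adjusted p = 0.0525 to 0.0697), and without both 1107 and 1112 (adjusted p = 0.0808). FZD9 was lower at -0.85 (adjusted p = 0.0349), a call lost in 9 of the 15 fits without 1 library (highest adjusted p = 0.0809) and without both 1107 and 1112 (adjusted p = 0.1). FZD2, FZD7 and FZD8 did not pass the test, so the receptors did not move as 1 group.

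Of the 21 listed fat cell genes 7 were tested, of which 4 were lower in cardiac fat, 0 higher and 3 not called, with a median log2 fold change of -1.17. Across all tested genes 10.9% were lower and 6.84% higher. FABP4, the fatty acid carrier that is one of the most abundant transcripts of fat cells, lay at 16182 to 29593 FPKM in abdominal fat (median 23773). In cardiac fat it lay at 1959 to 15238 FPKM (median 8635), below every abdominal library. The log2 fold change was -1.64 (SE 0.38, adjusted p = 0.00458). The lowest 2 values, 1959 FPKM in library 1112 and 3893 FPKM in library 1107, were in the muscle-rich libraries, and without them the log2 fold change was -1.17 (adjusted p = 0.0035). Quantile normalization gives every library the same top value, FABP4 ranks first in all of them, and its call was lost there.

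As a share of the summed FPKM of the 564 genes, FABP4 made up 43.0% ± 3.71 (SD, n = 7) in abdominal and 24.1% ± 9.32 (SD, n = 8) in cardiac fat. The range was 38.3% to 48.6% in abdominal and 8.17% to 34.2% in cardiac libraries, and the difference of the means was -18.8 percentage points (exact permutation test, two-sided, p = 0.000311, adjusted p = 0.000932 over 3 values). The shares were lowest in libraries 1112 (8.17%), 1107 (16.7%), 1109 (17.7%) and 1108 (22.7%). Summed heart muscle genes in 1109 and 1108 were at 0.472 and 5.09 FPKM, against at most 0.564 FPKM in abdominal fat. The part of heart muscle in the lower share was not tested. Without libraries 1107 and 1112 the difference was -14.9 percentage points.

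PPARG, the master regulator of fat cells, fell from a median of 58.4 FPKM (38.0 to 92.9) to 29.2 FPKM (12.0 to 38.2), a log2 change of -1.21 (SE 0.26, adjusted p = 0.00309). Without libraries 1107 and 1112 the log2 change was -0.93 (limma adjusted p = 0.00851). The groups touched only where cardiac library 1111, at 38.2 FPKM, met abdominal library 1094, at 38.0 FPKM. CAV1, the coat protein of the caveolae that crowd the surface of fat and endothelial cells, lay at 401 to 578 FPKM (median 475) and 107 to 234 FPKM (median 160.3), far apart (log2 fold change -1.52, SE 0.18, adjusted p = 2.2e-05). DBI, which binds acyl-CoA in the cytosol, had medians of 1127 and 526 FPKM (log2 fold change -1.17, SE 0.27, adjusted p = 0.00501) with overlap. Its log2 fold change was -0.95 (limma adjusted p = 0.0174) without libraries 1107 and 1112.

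EBF2 and EBF3, transcription factors of fat cell precursors, were not called, with log2 fold changes of 0.33 (adjusted p = 0.343) and 0.29 (adjusted p = 0.495). NR1H3, the sterol-sensing receptor LXR alpha, was listed at 0.001 FPKM in abdominal library 1092 and at 28.0 to 62.6 FPKM in the other 6, against a median of 49.2 FPKM in cardiac fat, where no library was at the floor. Such an entry can be a failed estimate, and NR1H3 did not pass the test (adjusted p = 0.569). ABCA1, which exports cholesterol, was the only called gene among 4 tested genes of lipid and sterol synthesis (median log2 fold change -0.07), against 17.7% called among all tested genes. Its log2 fold change was -0.97 (SE 0.28, adjusted p = 0.0254). Its call was lost without abdominal library 1094 or 1099 or cardiac library 1108 (adjusted p = 0.0521 to 0.0574), and without both 1107 and 1112 (adjusted p = 0.0801).

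**Figure D3:**
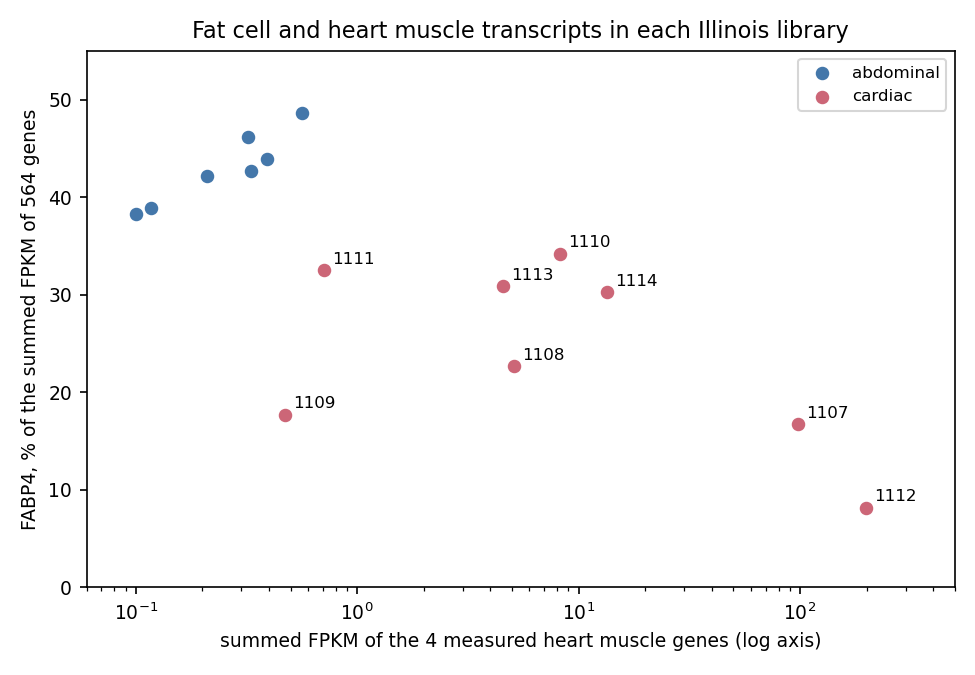
Each point is 1 Illinois library, with the summed FPKM of 4 heart muscle genes on a log axis and the share of the summed FPKM of 564 genes that FABP4 took, in percent. The 7 abdominal libraries lie between 38.3% and 48.6%; cardiac libraries 1107 and 1112 lie at the right with 16.7% and 8.17%, and library 1109 has 17.7% at 0.472 FPKM of muscle genes.

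Receptors and regulators of G-protein signalling, through which catecholamines and adenosine act on fat cells, were lower in cardiac fat in 5 of 6 tested genes of 27 listed, with 0 higher and a median log2 fold change of -1.24. Among all tested genes 10.9% were lower and 6.84% higher. ADRA1B, the alpha-1B adrenergic receptor, lay at 6.21 to 15.2 FPKM in abdominal fat (median 9.91) and at 0.285 to 4.43 FPKM in cardiac fat (median 1.45). It was the largest fall of the named genes, with no overlap and a log2 change of -2.08 (SE 0.31, adjusted p = 0.00017). ADORA1, the adenosine A1 receptor that restrains lipolysis in mammalian fat cells, fell from a median of 23.9 FPKM (16.3 to 37.4) to 5.57 FPKM (2.5 to 15), also without overlap (log2 fold change -1.74, SE 0.30, adjusted p = 0.000607).

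RGS proteins shorten the signal of such receptors by speeding the turn-off of their G proteins. RGS4 fell from a median of 28.0 FPKM (26.0 to 46.4) to 13.0 FPKM (6.68 to 23.4) without overlap (log2 fold change -1.21, SE 0.24, adjusted p = 0.00164). RGS2 fell from 65.4 FPKM (49.4 to 125) to 26.4 FPKM (17.5 to 51.1), a log2 change of -1.26 (SE 0.24, adjusted p = 0.00109), with slight overlap. RGS3 was also lower (log2 fold change -0.78, adjusted p = 0.016), and RGS19 did not pass the test (0.10, adjusted p = 0.829). Without libraries 1107 and 1112 the named genes of this group, ADRA1B, ADORA1, RGS2 and RGS4, had log2 fold changes of -1.86, -1.44, -1.31 and -1.04 and were still called. Of the tested fat cell genes, 4 of 7 were lower in the same comparison, and their part in these falls was not tested.

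Genes of vascular endothelium were lower in 3 of 6 tested genes of 22 listed, with 0 higher and a median log2 fold change of -0.65. The shares over all tested genes were 10.9% lower and 6.84% higher. Their summed level was 304 to 582 FPKM in abdominal and 177 to 393 FPKM in cardiac fat. CLDN5, a tight-junction protein, lay at 49.9 to 123 FPKM (median 115) in abdominal and at 9.84 to 49.5 FPKM (median 29.8) in cardiac fat. The groups met without overlapping, and the log2 fold change was -1.86 (SE 0.34, adjusted p = 0.000802), or -1.48 (adjusted p = 0.00172) without libraries 1107 and 1112.

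CDH5, the adhesion protein VE-cadherin, fell from a median of 139.9 FPKM (59.1 to 157) to 51.6 FPKM (38.2 to 82.2), a log2 change of -1.08 (SE 0.26, adjusted p = 0.00573). FLT1, a receptor for vascular endothelial growth factor, had a log2 change of -0.82 (SE 0.27, adjusted p = 0.0438). Its call was lost in 9 of 15 fits, those without abdominal libraries 1093, 1097, 1098 or 1099 or cardiac libraries 1108, 1109, 1110, 1111 or 1113 (adjusted p = 0.0519 to 0.0975), and without both 1107 and 1112 (adjusted p = 0.0551). The transcription factors SOX18, ERG and LMO2 were not called, with log2 fold changes of -0.47, -0.32 and -0.20 (adjusted p = 0.357, 0.459 and 0.58). These log2 fold changes were also negative, and whether the transcription factors differed from the called genes of the list was not tested.

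Other named genes that were lower in cardiac fat were of several kinds. ITGB1, the shared subunit of many integrins, fell from a median of 297 FPKM (211 to 519) to 142 FPKM (83.3 to 184) without overlap (log2 fold change -1.22, SE 0.21, adjusted p = 0.000607). SDC2, the heparan sulfate proteoglycan syndecan-2, had medians of 322 and 142 FPKM (log2 fold change -1.23, SE 0.27, adjusted p = 0.00309), with overlap, and lost its call with all 31 libraries (adjusted p = 0.161). SGK1, a kinase induced by glucocorticoids, was the only called gene of 5 tested immediate early and stress genes (median log2 fold change -0.51), against 17.7% called among all tested genes. Its log2 fold change was -1.10 (SE 0.25, adjusted p = 0.00458). In that list EGR1, an early response gene, had medians of 122 and 80.7 FPKM and was not called (adjusted p = 0.172).

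Among the largest rises, SS2 stood out by its spread. SS2 is the table's symbol for a gene of the somatostatin family, small peptide hormones that also serve as transmitters, which the RefSeq table lists as SST7. In abdominal fat it lay at 0.001 to 0.844 FPKM (median 0.228). The cardiac libraries held 103 FPKM in 1110, 31.1 in 1111, 26.6 in 1113, 23.0 in 1109, 20.7 in 1108, 11.6 in 1114, 1.70 in 1107 and 0.157 in 1112. The 2 low cardiac libraries were the muscle-rich ones, and library 1112 lay within the abdominal range. No abdominal library reached 1 FPKM, so SS2, like TBX20, was tested only because it was high in cardiac libraries. The log2 fold change was 3.50 (SE 0.74, adjusted p = 0.00309), and 4.51 (SE 0.37, adjusted p = 1.1e-06) without libraries 1107 and 1112.

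CHRNA3, a subunit of the nicotinic receptor of autonomic ganglia, was named after its values were seen. It lay at 0.0478 to 0.148 FPKM in abdominal fat. In cardiac fat its 2 lowest values, 0.0369 FPKM in 1107 and 0.173 FPKM in 1112, and its highest, 7.06 FPKM in 1110, were in the same libraries as those of SS2, and the other 5 lay at 1.32 to 3.08 FPKM. CHRNA3 missed the filter and was called with no filter (log2 fold change 1.34, adjusted p = 0.0168). Of 30 listed genes of nerve and glia only SS2, CHRNA3 and CHRNA5 were measured. CHRNA5, another subunit, did not pass the test (0.31, adjusted p = 0.36), so the list rests on few genes.

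IL1RL1, the receptor of the alarm cytokine interleukin-33 in mammals, lay at 0.92 to 4.92 FPKM in abdominal fat (median 2.25) and at 8.56 to 21.9 FPKM in cardiac fat (median 13.9). The groups did not overlap, and the log2 fold change was 2.32 (SE 0.24, adjusted p = 4.53e-06). Only PTPRC, the pan-leukocyte protein CD45, and IGJ, the joining chain of antibodies, were measured of 29 listed immune genes. Neither was called (0.57 and 0.77, adjusted p = 0.449 for both), and their summed level was 8.31 to 87.7 FPKM in abdominal and 23.4 to 176 FPKM in cardiac fat. TNFRSF6B, a decoy receptor named after its values were seen, rose from a median of 0.219 to 2.57 FPKM without overlap (log2 fold change 1.49, adjusted p = 7.86e-05). It too passed the filter through the cardiac libraries alone, with no abdominal value of 1 FPKM.

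ALDH1A1, which makes retinoic acid from retinal, rose from a median of 9.10 FPKM (1.02 to 14.8) to 39.8 FPKM (12.4 to 60.2), a log2 change of 1.98 (SE 0.43, adjusted p = 0.00309), with overlap. The other tested retinoid gene, the receptor RARA, was not called (0.66, adjusted p = 0.621) and was listed at 0.001 FPKM in abdominal library 1096 against 59.6 to 81.5 FPKM in the other abdominal libraries. IGFBP4, a binding protein of insulin-like growth factors, rose from a median of 33.0 FPKM (21.0 to 96.5) to 119.8 FPKM (87.0 to 182), a log2 change of 1.61 (SE 0.28, adjusted p = 0.00064). Abdominal library 1092, at 96.5 FPKM, was again the one that overlapped.

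FOXO1, a factor that insulin keeps out of the nucleus, was the other called gene of 5 tested in the insulin and growth hormone axis (median log2 fold change 0.42). The share called among all tested genes was 17.7%. FOXO1 was lower (-0.62, SE 0.18, adjusted p = 0.0213). The call was lost without abdominal library 1099 (adjusted p = 0.0565) and without both 1107 and 1112 (adjusted p = 0.0686). IGF2, the growth factor, had medians of 10.8 and 15.5 FPKM and was not called (0.63, adjusted p = 0.0909). ADD3, the membrane skeleton protein adducin 3, rose from a median of 17.2 FPKM (11.7 to 37.5) to 63.0 FPKM (41.1 to 117) without overlap (log2 fold change 1.61, SE 0.27, adjusted p = 0.000438). LSP1, a symbol whose gene number the RefSeq table lists as LSP1P1, rose from 63.5 FPKM (49.0 to 191) to 217 FPKM (183 to 370.1), with library 1092 as the overlapping abdominal value (log2 fold change 1.69, SE 0.27, adjusted p = 0.000321). With all 31 libraries its call was lost (adjusted p = 0.155).

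SEMA3C, a secreted guidance cue needed for the outflow tract of the heart, was the only called gene of 6 tested guidance genes (median log2 fold change 0.58). The share called among all tested genes was 17.7%. SEMA3C had medians of 2.78 FPKM (0.686 to 17.3) and 9.27 FPKM (6.31 to 12.0). The log2 fold change was 1.19 (SE 0.37, adjusted p = 0.0316), and the highest value of all 15 libraries was that of abdominal library 1092. Its call was lost in 9 of 15 fits, those without abdominal libraries 1093, 1094, 1097, 1098 or 1099 or cardiac libraries 1108, 1110, 1111 or 1112 (adjusted p = 0.0515 to 0.0677), without both 1107 and 1112 (adjusted p = 0.0573) and with all 31 libraries (adjusted p = 0.0521). SLIT3, a repellent cue of the same list, had medians of 3.14 and 6.62 FPKM and was not called (0.74, adjusted p = 0.0563).

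ARNTL, the clock factor BMAL1, was the only called gene of 7 tested clock genes (median log2 fold change -0.12), against 17.7% called among all tested genes. It had medians of 38.9 and 21.8 FPKM (log2 fold change -0.70, SE 0.23, adjusted p = 0.0438). Its call was lost in 9 of 15 fits, those without abdominal libraries 1093, 1094, 1097 or 1099 or cardiac libraries 1107, 1108, 1109, 1112 or 1113 (adjusted p = 0.0612 to 0.096), and without both 1107 and 1112 (adjusted p = 0.126). Its partner CLOCK had medians of 9.73 and 8.43 FPKM and was not called (adjusted p = 0.753).

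Several groups held no called gene. These were the 4 tested genes of fatty acid oxidation and mitochondria (median log2 fold change -0.01), the 7 of cell division (0.18), the 5 ribosomal protein genes (0.06), the HOX gene HOXA3 (-0.27, adjusted p = 0.837) and the smooth muscle gene CALD1 (-0.11, adjusted p = 0.774). Of 15 listed skeletal muscle genes 4 were measured and none tested, and no red blood cell gene was measured. As 17.7% of all tested genes were called, the lack of a call in groups this small says little about them. A p that misses the threshold does not show that levels were equal.

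**Figure D4:**
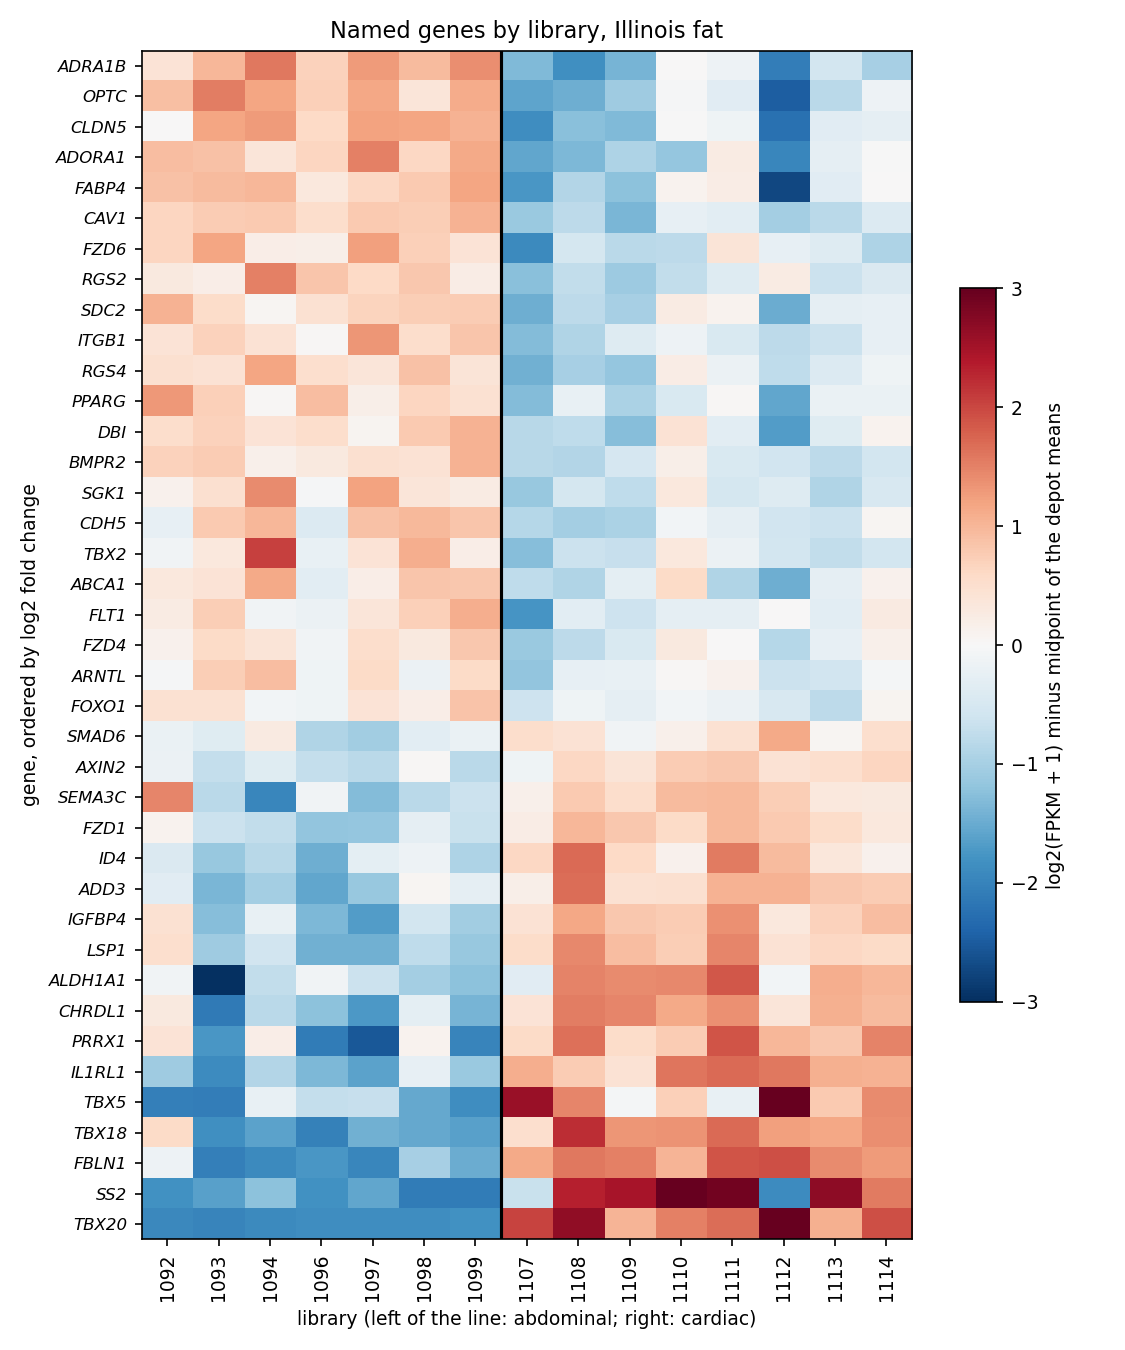
Rows are the 39 tested genes named by rule and columns the 15 Illinois libraries, with colour giving log2(FPKM + 1) minus the midpoint of the 2 depot means of the gene. Genes higher in cardiac fat and genes lower in cardiac fat form 2 blocks, and abdominal library 1092 is shifted toward the cardiac level in TBX18, FBLN1, SEMA3C, LSP1 and IGFBP4.

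Libraries within a depot differed in a patterned way. Of the 27 genes called higher in cardiac fat, abdominal library 1092 had the highest abdominal value in 15 (55.6%), against 91 of all 395 tested genes (23.0%). With library 1092 set aside, 17 of the 27 genes had no overlap between depots, against 12 with it. Setting any library aside can only keep or raise this count, and 1092 was picked for its high values, so the rise is no further evidence. TBX20 was not among the genes raised in library 1092, where it was 0.0298 FPKM. Cardiac library 1107 had the lowest cardiac value in 19 of the 43 genes called lower (44.2%), but also in 198 of the 395 tested genes (50.1%), so it was low across the table. Cardiac library 1112 was lowest in 12 of the 43 genes (27.9%) and in 55 of the tested genes (13.9%).

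Ross birds of the same trial gave a comparison of depots in another line, with 4 libraries each. In a fit of the 23 Fall 13 libraries 409 genes were tested, of which 65 differed between the Ross depots (15.9%). The depot difference itself differed between the lines in 6 genes (1.47%, limma adjusted p below 0.05), and in all 6 the log2 fold change was lower in Illinois than in Ross. TBX20 rose in Ross too, from a mean of 0.176 ± 0.197 to 9.33 ± 1.75 FPKM (SD, n = 4 each; log2 fold change 3.13), and the lines did not differ by the test (difference 0.64, SE 0.42, adjusted p = 0.385). FBLN1 had a Ross log2 fold change of 2.76 (difference 0.18, SE 0.53, adjusted p = 0.884), and ADRA1B one of -2.13 (difference 0.05, SE 0.48, adjusted p = 0.97).

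TBX18 had a Ross log2 fold change of 3.53 (difference -0.81, SE 0.49, adjusted p = 0.352), with Ross abdominal values of 0.182 to 0.444 FPKM. For TBX5 the Ross log2 fold change was 1.01 and not called (adjusted p = 0.322), but the difference between lines did not pass either (1.60, SE 0.80, adjusted p = 0.249). PITX1 was at or near the floor in Ross cardiac fat as well, at 0.001 to 0.192 FPKM against 4.63 to 10.5 FPKM in abdominal fat.

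Fat cell genes were compared between the lines in the same way. CAV1 averaged 248 ± 68.2 FPKM in Ross abdominal and 259 ± 74.8 FPKM in Ross cardiac fat, a log2 change of 0.06. The difference between lines was -1.58 (SE 0.33, adjusted p = 0.0112), and this call was lost after quantile normalization (adjusted p = 0.11). FABP4 averaged 14185 ± 768 and 19562 ± 8263 FPKM in Ross abdominal and cardiac fat (log2 fold change 0.34, adjusted p = 0.697), and the difference of -1.98 (SE 0.59) did not pass the test (adjusted p = 0.0665). The same holds for PPARG, with a Ross log2 fold change of -0.71 and a difference of -0.50 (SE 0.43, adjusted p = 0.553).

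CXCL12, a chemokine that retains stem and immune cells, showed the largest difference between lines. It was at 2.34 to 5.17 FPKM in Ross abdominal and 24.0 to 44.6 FPKM in Ross cardiac fat (log2 fold change 2.85), but at 17.6 to 50.3 and 24.1 to 84.9 FPKM in the Illinois depots (0.45, adjusted p = 0.343). The difference was -2.39 (SE 0.46, adjusted p = 0.00664). It was lost when all 31 libraries were fitted with a trial term. The other 4 genes were PARK7, RPL35, MRPL23 and PCBD2, with differences of -1.24 to -1.53. Their Ross log2 fold changes were 0.83 to 1.39, and none was called between the Illinois depots. They are a redox-sensitive protein, a cytosolic and a mitochondrial ribosomal protein and a pterin enzyme, and RPL35, which has close copies, lost its call without Ross cardiac library 1206 or 1207 (highest adjusted p = 0.0597) and after quantile normalization (adjusted p = 0.157).

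**Figure D5:**
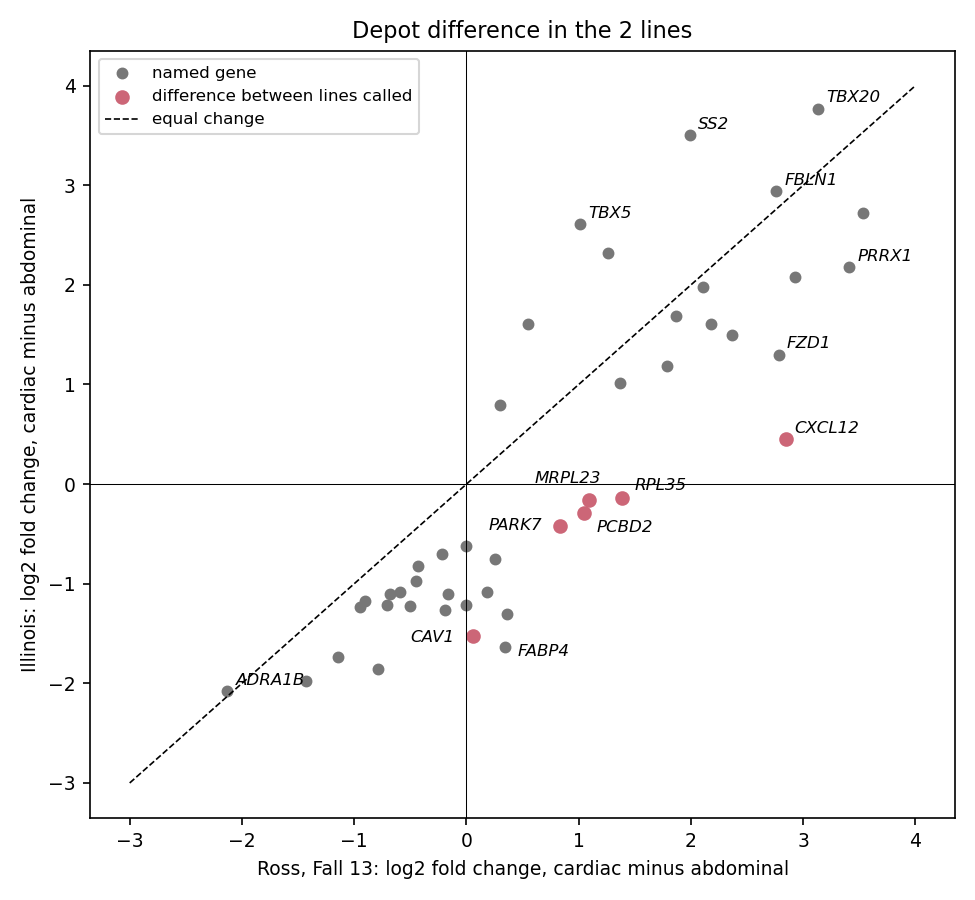
Points are named genes, and the 6 genes whose depot difference differed between lines are coloured; the horizontal axis is the log2 fold change cardiac minus abdominal in Ross birds of Fall 13 and the vertical axis that in Illinois birds. TBX20, FBLN1 and ADRA1B lie near the dashed line of equal change, while CXCL12 and CAV1 lie below it.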

How the data were processed

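Per the labels' protocols, frozen abdominal and cardiac fat gave polyA RNA libraries from a stranded kit. Bowtie, TopHat and Cufflinks are named, without versions, in the submitters' processing notes, and the build and gene models were not given in the sources used here. Values as deposited are FPKM by gene and library, a unit taken from the tool and the range of values, because the header names none. FPKM divides by the library total, so an abundant gene can lower all others. How far FABP4 does so is unknown, because its share of the whole library was not given. A total of 566 complete lines held 564 genes after 2 exact duplicates were removed, and all 31 columns matched a library. RefSeq's gene table (GRCg7b), used for names only, held 562 of the 564 gene numbers, 541 under an identical symbol.

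The depots were compared on log2(FPKM + 1) by limma 3.58.1 (R 4.3.3 and statmod 1.5.0), with trend and robust moderation and depot as the only term. Genes had to reach 1 FPKM in 7 or more of 15 libraries. Tests were two-sided and adjusted by Benjamini-Hochberg over all tested genes. The difference of depot differences was fitted over 23 Fall 13 libraries. Single values per library were compared by exact permutation, adjusted over 3. Relative depth came from fragment steps. The fragment size of each gene was chosen to fit these same low values best, and no chance level was set. By it, 75.7% of 1061 low values in 103 genes lay within 0.05 fragments of a whole number, too few for a count test. The fit and the depth step were tested on simulated data. Alternatives were another pseudocount, filter, scaling, moderation, set of libraries, a block, and leaving out each library. Of 8460 Illinois values, 1044 were at the floor.

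The rule for named genes took the 12 largest rises and 12 largest falls of called genes that averaged 5 FPKM or more in the higher depot. It added up to 4 called members of each of 25 gene lists, and FABP4, PPARG, CASQ2 and MYH7B always. The comparison, lists and rule were chosen with earlier results of these data known. Other genes were named after their values were seen.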

Additional observations from a re-analysis of the deposited data

Results flagged for a closer look

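Among 88 sets of values, 1 gene or library measure in 1 depot each, 6 held a library whose distance from the rest passed Dixon's 95% limit, and chance marks about 1 in 20 such sets. In abdominal fat, TBX18 was at 8.21 FPKM in library 1092 and at 0.536 to 1.28 FPKM in the other 6. ALDH1A1 was at 1.02 FPKM in abdominal library 1093 and at 6.21 to 14.8 FPKM in the others. MYH7B was at 0.244 FPKM in abdominal library 1094 and at 0.0179 to 0.0984 FPKM in the others. Among cardiac libraries, 1107 was low for AXIN2, at 3.49 FPKM against 5.45 to 7.63, and for FLT1, at 2.70 FPKM against 7.21 to 14.1. BMPR2 was high in cardiac library 1110, at 8.54 FPKM against 3.61 to 5.20.

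The depot difference differed between the lines in 6 genes, by limma's test of the difference itself in Fall 13 libraries. The log2 difference, Illinois minus Ross, was -2.39 for CXCL12, -1.58 for CAV1, -1.53 for RPL35, -1.35 for PCBD2, -1.25 for MRPL23 and -1.24 for PARK7. In single fits that left out 1 of 23 libraries, all but RPL35 kept their call.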

How the results depend on the processing

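The total of 70 called genes stayed between 53 and 75 when single libraries were left out, the higher genes between 21 and 39 and the lower ones between 30 and 47. Quantile normalization called 100 genes, 37 higher and 63 lower. The 27 higher genes of the main fit became 46 with upper quartile scaling, 43 with median-of-ratios scaling and 64 when scaled to the sum of all genes but FABP4, where the 43 lower ones became 23. That sum covers a stretch of the genome and not the whole library, and this scaling was chosen after seeing the data. Among the genes named by rule, it ended the calls of ABCA1, ARNTL, FLT1, FOXO1, FZD4 and TBX2 (adjusted p = 0.0514 to 0.111). Of the other called genes named in the text, ANGPT1, FZD9, GJA1 and RGS3 lost their calls under 1 of the scalings and TGFBR3 under 2. The fit of all 31 libraries with a trial term called 79 genes and lost LSP1, SDC2, SEMA3C and SMAD6. The 6 genes that differed between lines became 12 after quantile normalization and 46 with all 31 libraries, and 5 to 19 when single libraries were left out, with 19 without Illinois cardiac library 1111, 17 without abdominal 1096 or cardiac 1110, 14 without Ross cardiac 1205 and 10 without Ross abdominal 1195. The cause of these shifts was not tested. The difference in the FABP4 share ran from -20.3 to -16.5 percentage points over single libraries left out. As a percent of the summed FPKM of all other genes, FABP4 differed by -42.5 points (exact permutation p = 0.000311). Of 1091 combinations of a named gene and a setting, 1024 kept the call, 67 lost it and 0 changed direction.

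The second number of the column headers occurs in both depots for 7 Illinois pairs, but the labels do not say that it marks a bird. Second numbers of the Ross libraries recur between depots too, and the test of the difference between lines used no block. Deviations from the group means correlated at -0.06 to 0.34 within the Illinois pairs, over 0.1 in 3 of 7. By the same measure, 2 of 7 abdominal libraries matched best with their own number. These values cannot settle whether the libraries were paired, and they do not show that the birds differed. With the second number as a replicate block, 75 genes were called (38 higher and 37 lower), as were 75 in the same libraries with no block. Of the 70 genes, 60 were among those of the block. Among the genes named by rule, ARNTL, FZD4 and SMAD6 lost their calls (limma adjusted p = 0.0699, 0.0524 and 0.0699). Of the other called genes named in the text, OGN and TGFBR3 lost theirs (limma adjusted p = 0.0623 and 0.0967). The block without libraries 1107 and 1112 called 60 genes. The FABP4 share differed by -17.8 points within pairs (exact sign permutation p = 0.0156, the smallest that 7 pairs allow).

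Total depth is unknown, so counting error at low values could not be given. In 34 genes a library at the floor stood beside another of its depot with 5 FPKM or above, and such entries can be failed estimates.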

Other observations

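Other called genes fell outside the naming rule and were picked after their values were seen. LMO4, a LIM-domain partner of transcription factors, rose from a median of 11.4 FPKM (6.56 to 14.6) in abdominal to 32.6 FPKM (18.5 to 57.9) in cardiac fat without overlap (log2 fold change 1.53, limma adjusted p = 0.000211). ANGPT1, the angiopoietin that steadies vessels, had medians of 2.02 and 5.81 FPKM (0.98, adjusted p = 0.0244). Its call was lost without cardiac libraries 1107 and 1112 (0.88, adjusted p = 0.0721) and in 2 of 15 fits without 1 library (highest adjusted p = 0.0538). OGN, the small proteoglycan osteoglycin, had medians of 57.3 and 101 FPKM (0.94, adjusted p = 0.0386), a call that 8 of 15 fits without 1 library lost. TNFSF13B, the B cell factor BAFF, had medians of 0.592 and 4.36 FPKM (1.26, adjusted p = 0.0199), and its highest abdominal value was 5.21 FPKM. Most abdominal values were below 1 FPKM, so TNFSF13B needed cardiac libraries to pass the filter.

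Falls of the same kind included GPX4, the selenoenzyme that repairs oxidised membrane lipids, from 2515 FPKM (2236 to 3906) to 1269 FPKM (714 to 1829) without overlap (log2 fold change -1.21, adjusted p = 0.000918). LIFR, the receptor of leukemia inhibitory factor, fell from 29.1 FPKM (21.4 to 42.8) to 14.1 FPKM (8.83 to 18.3) without overlap (-1.07, adjusted p = 0.000764). KIT, the receptor of stem cell factor, had medians of 5.28 and 2.14 FPKM (-1.0, adjusted p = 0.00274). COL18A1, the basement membrane collagen, had medians of 19.1 and 6.82 FPKM (-1.18, adjusted p = 0.00315). GJA1, the gap junction protein connexin 43, had medians of 31.2 and 19.0 FPKM (-0.95, adjusted p = 0.0131).

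The 2 muscle-rich cardiac libraries did not hold the same muscle genes. MYOD1, the skeletal muscle determination factor, was at 6.08 FPKM in library 1107 and at most 0.0919 FPKM in the other cardiac libraries. NEB, the giant thin-filament protein of skeletal muscle, was at 34.2 FPKM in library 1107 and at 0.18 FPKM in library 1112. IRX4, a factor of the heart ventricle, was at 5.45 FPKM in library 1112 and at 0.0538 FPKM in library 1107. ANKRD1, a stress-responsive gene of heart muscle, was at 8.47 FPKM in library 1107 and 1.87 FPKM in library 1112. SMYD1, a methyltransferase of heart and skeletal muscle, was at 17.0 and 24.2 FPKM in these libraries and did not pass the test between depots (1.31, adjusted p = 0.0561).

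NKX3-2, a homeobox factor of the axial skeleton and gut mesenchyme, missed the filter. It was at 9.48 FPKM in abdominal library 1092, 5.25 FPKM in 1098 and 2.39 FPKM in 1094, at 0.312 to 0.695 FPKM in the other 4, and at 0.366 to 0.629 FPKM in cardiac fat. Libraries 1092, 1094 and 1098 are the same 3 abdominal libraries in which PRRX1 exceeded 20 FPKM. DCX, a microtubule protein of migrating neurons, was at the floor in all 8 cardiac libraries and at 0.001 to 1.74 FPKM in abdominal fat (median 0.591).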
